A study of Homo sapiens with 2 samples.

Results

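VEGFA, ESM1 and ANGPT1 are 3 secreted angiogenic factors among the 373 gene symbols counted in single SUM159 cells, and they are described here in every population of the series. They were chosen by name. SUM159 is a human triple-negative breast cancer line, that is, one classed as lacking the oestrogen and progesterone receptors and HER2 amplification. The line was profiled without treatment (treatment-naïve) and after it had been made resistant to paclitaxel or to doxorubicin by exposure to escalating doses. Each of these was grown either attached to plastic or as spheroids in Matrigel. There were 2 samples, 1 for each culture, each a separate cartridge holding 3 tagged populations, which gives 6 populations without replicates. Each population was thus a single culture of 1 cell line, and no endothelial cells were added. The labels call the drug-exposed spheroids treated while the design of the series calls them resistant, and the latter name is used here.

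VEGFA, the main ligand of the endothelial receptors KDR and FLT1, drives the sprouting and permeability of blood vessels and is a classical target of hypoxia-inducible factors. ANGPT1 (angiopoietin 1) is the agonist of the endothelial receptor TEK and is known for stabilising mature vessels. ESM1 (endocan) is a secreted dermatan sulphate proteoglycan best known from the tip cells of sprouting vessels, where VEGFA induces it, and it is also made by some tumour cells.

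In the RefSeq annotation of GRCh38.p14, VEGFA lies on chromosome 6 between 43770211 and 43786487, and ESM1 on chromosome 5 between 54977867 and 54985593, on the minus strand. Of the 3 factors, ESM1 differed most between resistant and treatment-naïve cells. The 250 bases before its RefSeq start, chr5:54985594-54985843 on the minus strand, are shown with the matches to 3 motifs in capitals. No promoter sequence of VEGFA was available to set beside it.

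ESM1 promoter: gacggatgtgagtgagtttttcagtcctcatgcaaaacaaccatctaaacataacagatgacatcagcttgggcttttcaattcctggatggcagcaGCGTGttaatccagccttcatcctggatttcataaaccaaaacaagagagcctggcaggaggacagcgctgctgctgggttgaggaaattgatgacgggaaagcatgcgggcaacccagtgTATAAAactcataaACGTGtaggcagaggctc

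The capitals mark GCGTG at 153 to 149 bases before the start, the TATA box sequence TATAAA at 32 to 27 and ACGTG at 18 to 14. ACGTG and GCGTG are both forms of the core that hypoxia-inducible factors recognise, and TATAAA is the core promoter element bound by the TATA-binding protein. Searched on both strands, ACGTG was present in 18.5%, GCGTG in 32.2%, either of these in 43.2% and TATAAA in 10.7% of 35116 promoters of the same length. The matches do not overlap and are matches of letters only.

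The attached populations held 5305 to 7032 cells with a median of 3653 to 3814 unique molecular identifiers (UMIs, the counted molecules) per cell, and the spheroid populations held 3751 to 4362 cells with a median of 1538.5 to 2340. In spheroids only 56.0% to 67.7% of barcodes had at least 1000 UMIs. No barcode was shared within a cartridge and 264 were shared between the cartridges. All 7 carcinoma and mesenchymal markers (EPCAM, CDH1, KRT8, KRT18, VIM, CAV1 and COL1A1) had at least 1 UMI in every population. The epithelial markers CDH1 and EPCAM were close to absent, with only 1 to 4 and 14 to 147 UMIs in a population. Of the receptors that define the triple-negative class, ERBB2 was read at 517 to 1194 CPM (UMIs per 1000000 UMIs of the population) and ESR1 at 0.619 to 5.23 CPM. Of the endothelial markers only KDR and VWF were counted, at a summed 0.509 to 2.48 CPM, with KDR at 0 in 3 populations. Of the 6 leukocyte markers in the files, summed at 104 to 711 CPM, CD14 held 87.7 to 700.3 CPM and PTPRC, which marks all leukocytes, 0.233 to 9.10 CPM. CPM values of different genes are not compared, because each gene was amplified with its own primers.

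VEGFA was highest in attached treatment-naïve cells, with 12840 CPM (95% Poisson interval 12792 to 12888, 275069 UMIs). The attached paclitaxel-resistant cells held 4854 CPM (4826 to 4882) and the attached doxorubicin-resistant cells 4889 CPM (4864 to 4914). In spheroids the level was 10717 CPM (10656 to 10777) in treatment-naïve, 10264 CPM (10196 to 10333) in paclitaxel-resistant and 10519 CPM (10458 to 10582) in doxorubicin-resistant cells. The 2 attached resistant populations thus stood apart as the low ones, and the other 4 lay between 10264 and 12840 CPM.

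ESM1 was lowest in attached treatment-naïve cells, with 14.1 CPM (12.6 to 15.8, 302 UMIs). Attached paclitaxel-resistant cells had 47.4 CPM (44.6 to 50.3) and attached doxorubicin-resistant cells 215 CPM (209.8 to 220.4). Among spheroids, ESM1 was at 58.8 CPM (54.4 to 63.5) in treatment-naïve, 636 CPM (619 to 653) in paclitaxel-resistant and 798 CPM (781 to 815) in doxorubicin-resistant cells. Within either culture the order was treatment-naïve, paclitaxel-resistant, doxorubicin-resistant, and no 2 of the 6 intervals overlap.

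ANGPT1 was scarce throughout. It was read at 13.1 CPM (11.6 to 14.7, 280 UMIs) in attached treatment-naïve, 26.1 CPM (24.0 to 28.2) in attached paclitaxel-resistant and 11.85 CPM (10.6 to 13.2) in attached doxorubicin-resistant cells. In spheroids it was at 17.7 CPM (15.3 to 20.3), 55.0 CPM (50.1 to 60.2) and 29.7 CPM (26.5 to 33.2) in the same order. The paclitaxel-resistant population was the highest of its cartridge in both cultures. The intervals of attached treatment-naïve and attached doxorubicin-resistant cells overlap, as do those of attached paclitaxel-resistant and spheroid doxorubicin-resistant cells.

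**Figure D1:**
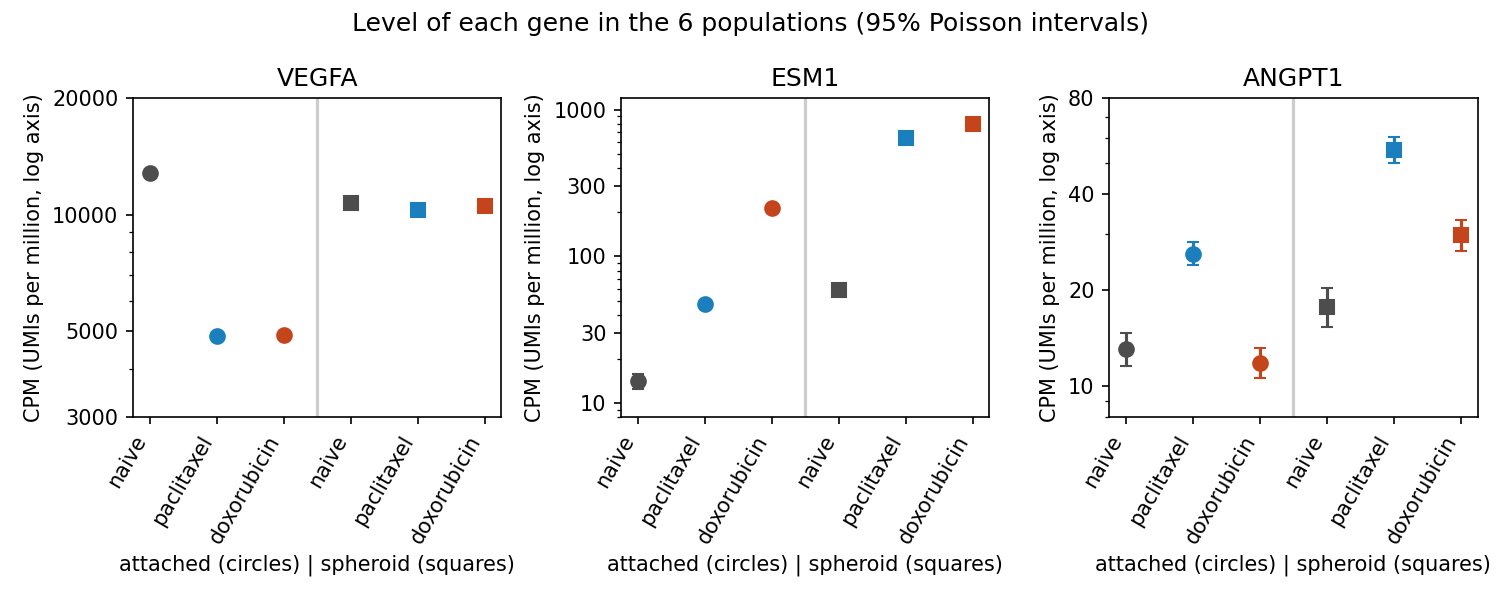
Level of VEGFA, ESM1 and ANGPT1 (CPM, log axis, a separate range for each gene) in the 3 attached populations (circles) and the 3 spheroid populations (squares), with 95% Poisson intervals that cover counting error only. VEGFA is low in the 2 attached resistant populations (4854 and 4889 CPM), ESM1 spans 14.1 to 798 CPM, and ANGPT1 peaks in the paclitaxel-resistant population of each culture.

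The first comparison asks how the factors differ between resistant and treatment-naïve cells of the same cartridge. Without replicates no test was possible, and a gene was called when its CPM differed by at least 2-fold and the population with more of it held 50 UMIs or more. Intervals of ratios are exact binomial intervals at 95%, and all intervals here cover counting error only, not the spread between cultures. Both resistant populations of a culture are set against the same treatment-naïve cells, so their ratios are not independent. The median measured gene lay at −0.02 and 0.13 on the log2 CPM ratio in attached and at 0.00 and 0.20 in spheroid cells, paclitaxel before doxorubicin, and at 0.10, 0.59, −0.42 and 0.10 in unscaled totals. The share of calls that were higher was 51.6% for attached doxorubicin-resistant cells and 32.9% for paclitaxel-resistant spheroids, and 67.4% and 13.3% in unscaled totals.

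In attached paclitaxel-resistant cells VEGFA was 2.65-fold lower than in treatment-naïve cells (95% interval 2.63 to 2.66) and was called lower, as were 25.2% of the 262 measured genes. ESM1 was 3.36-fold higher (2.96 to 3.83), past the rule with 20.2% of measured genes, and ranked 29 from the top. ANGPT1 was 1.99-fold higher (1.73 to 2.31), just under the threshold, with an interval that spans it.

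In attached doxorubicin-resistant cells the VEGFA level was 2.63-fold lower (2.61 to 2.64), a ratio of 0.381 that became 0.523 and so lost the call in unscaled totals, where by CPM 22.8% of 268 measured genes were called lower. ESM1 was 15.3-fold higher (13.6 to 17.2), where 24.3% were called higher, and held rank 10 of the measured genes. For ANGPT1 the ratio was 0.907 (0.773 to 1.06), an interval that includes no difference, and it turned to 1.25 in unscaled totals. ESM1 was 4.54-fold higher (4.26 to 4.84) in attached doxorubicin-resistant than in attached paclitaxel-resistant cells, against 13.8% of 261 genes called higher. ANGPT1 was 2.20-fold lower (1.93 to 2.52) in that comparison, against 9.96% called lower. The VEGFA ratio between these 2 resistant populations was 1.01 (0.999 to 1.015). The share of calls that were higher between them was 58.1% by CPM and 73.4% in unscaled totals.

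In spheroids VEGFA differed little with resistance: the ratio to treatment-naïve spheroids was 0.958 (0.949 to 0.966) in paclitaxel-resistant and 0.982 (0.974 to 0.990) in doxorubicin-resistant cells, the latter 1.07 with each cell weighted equally. ESM1 was 10.8-fold higher (9.98 to 11.7) in paclitaxel-resistant spheroids, rank 5 of 252 measured genes, of which 9.92% were called higher. ANGPT1 was called higher there too, by 3.11-fold (2.63 to 3.69), at rank 12, a call that was lost at 1.43-fold with each cell weighted equally. In doxorubicin-resistant spheroids ESM1 was 13.6-fold higher (12.5 to 14.7), rank 11 of 260 measured genes with 16.5% called higher, and ANGPT1 was 1.68-fold higher (1.40 to 2.01), under the threshold, and turned to a ratio of 0.710 with each cell weighted equally. Set against paclitaxel-resistant spheroids, doxorubicin-resistant spheroids had an ESM1 ratio of 1.25 (1.21 to 1.30), a VEGFA ratio of 1.02 (1.016 to 1.034) and an ANGPT1 level 1.85-fold lower (1.60 to 2.15), none of them called, where 12.7% of 251 genes were called higher and 4.78% lower. The share of those calls that were higher was 72.7% by CPM, 57.8% with median-of-ratios scaling and 89.7% in unscaled totals.

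Whether the ratio of resistant to treatment-naïve cells itself differed between the cultures can be read as a ratio of ratios, spheroid over attached. For VEGFA it was 2.53 (2.51 to 2.56) with paclitaxel resistance and 2.58 (2.55 to 2.60) with doxorubicin resistance. For ESM1 it was 3.22 (2.77 to 3.74) with paclitaxel resistance and 0.890 (0.774 to 1.02) with doxorubicin resistance. For ANGPT1 the values were 1.56 (1.25 to 1.94) and 1.85 (1.46 to 2.35). These intervals, normal approximations on the log scale, hold for counting error, and culture cannot be told apart from cartridge and depth in any of them. With each cell weighted equally the ANGPT1 ratio was smaller in spheroids, 1.43 against 2.34 with paclitaxel and 0.710 against 1.06 with doxorubicin resistance. For ESM1 so weighted, 3.89 stood against 3.49 and 5.43 against 15.7. Among cells of at least 1000 UMIs so weighted, ANGPT1 was again larger in spheroids (3.69 against 2.34 and 1.79 against 1.06).

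The second comparison sets spheroids against attached cells of the same kind. In treatment-naïve cells VEGFA was 1.20-fold lower (1.19 to 1.21) in spheroids by CPM, although median-of-ratios scaling turned this to a ratio of 1.06. In resistant spheroids VEGFA was higher than in their attached counterparts, 2.11-fold (2.10 to 2.13) with paclitaxel and 2.15-fold (2.13 to 2.17) with doxorubicin, both past the size rule, where 14.5% of 255 and 17.9% of 268 genes were called higher, and both turned to 0.764 and 0.770 in unscaled totals, which carry the smaller number of UMIs read from spheroids. The median measured gene lay at −0.33, −0.41 and −0.34 on the log2 CPM ratio, treatment-naïve cells first and doxorubicin-resistant cells last, so that relative to it VEGFA in resistant spheroids stood higher than by CPM, at 2.89-fold and 2.61-fold with median-of-ratios scaling. Under that scaling the share of calls that were higher moved from 42.9% to 67.7%, from 37.4% to 71.6% and from 53.3% to 64.7%, and in unscaled totals to 16.1%, 8% and 9.78%.

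ESM1 was higher in spheroids in each kind of cell under CPM, median-of-ratios scaling and unscaled totals, although in unscaled totals the doxorubicin-resistant ratio was 1.33 and lost the call. By CPM it was 4.17-fold higher (3.64 to 4.80) in treatment-naïve cells, against 18.2% of 264 genes called higher. That ratio was 8.996 with each cell weighted equally, 2.58 in cells that matched their own population, a match described further on, and 2.20 in unscaled totals. In paclitaxel-resistant cells it was 13.4-fold higher (12.6 to 14.3) and in doxorubicin-resistant cells 3.71-fold higher (3.59 to 3.84). ANGPT1 was 1.35-fold (1.12 to 1.63), 2.11-fold (1.87 to 2.39) and 2.51-fold (2.14 to 2.93) higher in spheroids by CPM in the same order, and was lower in unscaled totals, with ratios of 0.714, 0.762 and 0.897. All 3 genes were therefore called higher by CPM in both resistant populations, and ESM1 alone of the 3 in treatment-naïve cells. With each cell weighted equally ANGPT1 was instead called in treatment-naïve cells (2.84-fold) and not in paclitaxel-resistant (1.74-fold) or doxorubicin-resistant cells (1.91-fold).

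**Figure D2:**
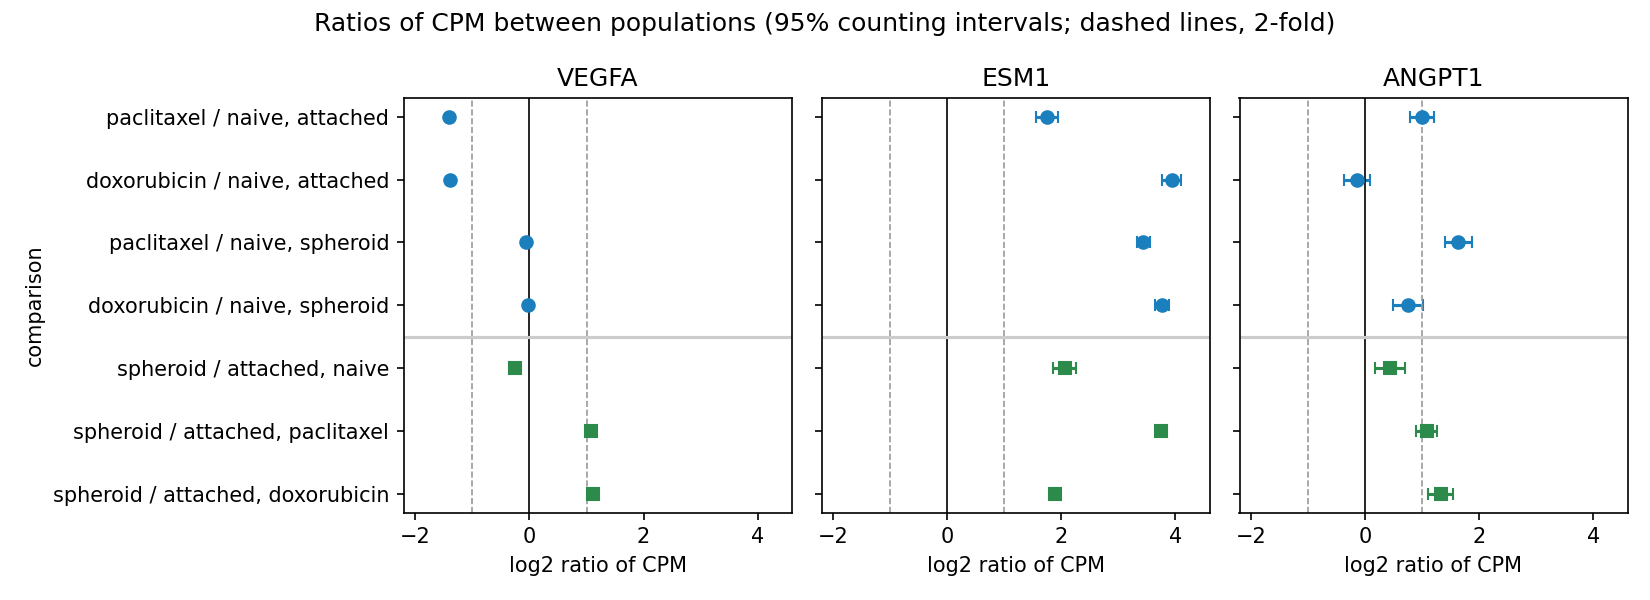
Log2 ratio of CPM for VEGFA, ESM1 and ANGPT1 in the 4 comparisons of resistant with treatment-naïve cells (blue circles) and the 3 comparisons of spheroid with attached cells (green squares), with 95% counting intervals. VEGFA lies near −1.4 in attached and near 0 in spheroid resistant cells, every ESM1 ratio lies above 1, and ANGPT1 lies below 0 only for attached doxorubicin-resistant cells, where its interval includes 0.

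VEGFA was close to universal across cells. At least 1 VEGFA UMI was present in 99.9%, 99.9% and 99.8% of attached cells and in 90.4%, 92.1% and 95.7% of spheroid cells, in the order treatment-naïve, paclitaxel-resistant, doxorubicin-resistant. To compare cells at equal depth, each cell of at least 1000 UMIs was thinned to 1000 UMIs by random draws without replacement, which set aside 1 attached cell and the shallower spheroid barcodes. The median attached cell then held 12, 4 and 4 VEGFA UMIs and the median spheroid cell 9, 10 and 9.

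The whole VEGFA distribution was displaced, not a subset of cells. In attached treatment-naïve cells the 5th to 95th percentiles ran from 3 to 28 VEGFA UMIs per 1000, compared with 1 to 11 in paclitaxel-resistant and 1 to 12 in doxorubicin-resistant cells. The corresponding ranges in spheroids were 2 to 26, 3 to 23 and 2 to 23. The tenth of cells richest in VEGFA held 23.1% to 26.4% of its thinned UMIs in the 6 populations. The variance over the mean was 5.00, 2.41 and 2.76 in attached and 5.91, 4.06 and 4.37 in spheroid cells, where 1 is the value of counting alone.

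ESM1 was found in a minority of cells, larger in the resistant populations. In attached cells 3.37% (2.90 to 3.90), 11.2% (10.4 to 12.0) and 31.8% (30.7 to 32.9) of cells had an ESM1 UMI, and in spheroids 7.06% (6.32 to 7.86), 31.7% (30.2 to 33.2) and 42.7% (41.1 to 44.3), with Clopper-Pearson intervals. At 1000 UMIs per cell the shares were 1.15%, 3.43% and 13.6% in attached and 4.26%, 29.1% and 35.1% in spheroid cells. Paclitaxel-resistant spheroid cells had about the same unthinned share as attached doxorubicin-resistant cells, at a median depth of 1629 against 3814 UMIs, and the thinned share separates them.

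The tenth of cells richest in ESM1 held 64.3% to 100% of its UMIs in the 6 populations, with the smallest shares where ESM1 was most often detected. The cut at more than 5 UMIs used next also follows the level of ESM1 and the depth of a cell. Cells with more than 5 ESM1 UMIs numbered 7, 20 and 261 among attached and 21, 273 and 442 among spheroid cells. In doxorubicin-resistant spheroids they were 11.7% of cells and held 68.9% of ESM1 UMIs, and in paclitaxel-resistant spheroids 7.28% of cells held 64.2%. In attached doxorubicin-resistant cells 3.71% of cells held 43.5%. In the other populations such cells held less, 23.8% in attached treatment-naïve cells, 18.2% in attached paclitaxel-resistant cells and 35.8% in treatment-naïve spheroids. The richest cell of any population held 77 ESM1 UMIs. Zeros exceeded what each cell's depth alone would give, 57.3% against 32.8% in doxorubicin-resistant and 68.3% against 45.5% in paclitaxel-resistant spheroids, and 68.2% against 43.7% in attached doxorubicin-resistant cells.

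**Figure D3:**
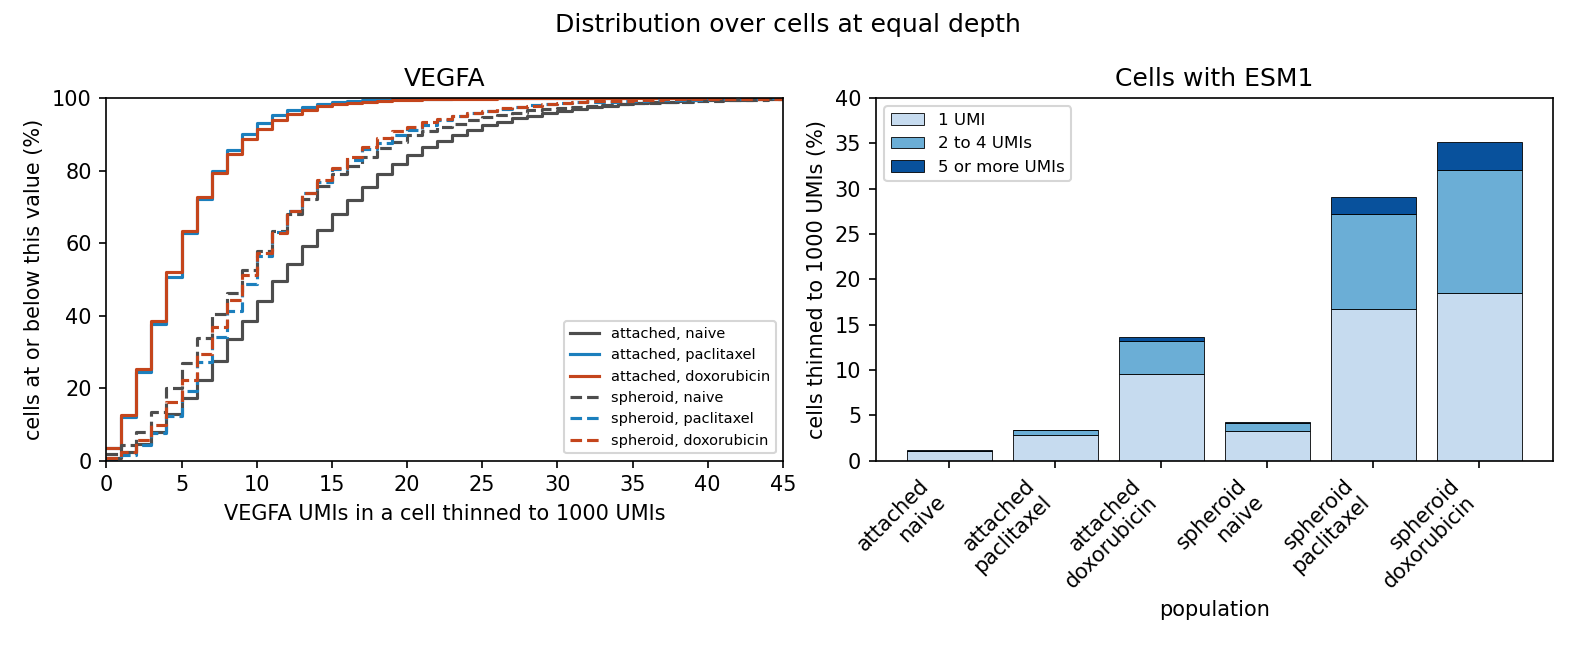
Left, cumulative share of cells (%) by VEGFA UMIs in a cell thinned to 1000 UMIs, for attached (solid lines) and spheroid (dashed lines) populations. Right, stacked shares of thinned cells (%) with 1, 2 to 4 and 5 or more ESM1 UMIs. The 2 attached resistant curves of VEGFA lie to the left of the other 4, with a median of 4 UMIs, and the ESM1 bars reach 29.1% and 35.1% in the resistant spheroids.

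ANGPT1 was sparse in every population. It was detected in 3.73% (3.24 to 4.28), 8.63% (7.93 to 9.38) and 4.44% (3.97 to 4.94) of attached cells and in 3.94% (3.385 to 4.56), 9.94% (9.005 to 10.95) and 6.91% (6.12 to 7.77) of spheroid cells. Between 77.8% and 88.8% of the positive cells held a single ANGPT1 UMI, and no cell held more than 7. At 1000 UMIs per cell the shares were 1.07%, 2.68% and 1.27% in attached and 1.35%, 5.13% and 2.35% in spheroid cells.

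Free RNA in the wells can give a cell UMIs of a gene that it does not express, and no cell type that should lack these genes was present to measure it. The lowest share on each cartridge stands in its place: for ESM1 3.37% of attached and 7.06% of spheroid treatment-naïve cells, at a median depth of 3710 and 1538.5 UMIs, and for ANGPT1 3.73% and 3.94% of the same cells. Shares near these values, such as ANGPT1 in attached doxorubicin-resistant cells, cannot be told apart from background. The ESM1 shares in resistant cells and the ANGPT1 shares in paclitaxel-resistant cells of both cultures lay above them with intervals that do not overlap, before and after thinning. For ANGPT1 in doxorubicin-resistant spheroids the thinned shares were 2.35% (1.79 to 3.01) against 1.35% (0.932 to 1.89) in treatment-naïve spheroids, with intervals that overlap.

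Depth moved with the level of VEGFA and ESM1, in spheroids and also in attached cells, and with that of ANGPT1 in attached treatment-naïve cells. Among spheroid barcodes under 1000 UMIs, VEGFA was at 15803, 15111 and 19823 CPM, above the 10476, 10005 and 10175 CPM of deeper cells. ESM1 went from 345 CPM in paclitaxel-resistant barcodes under 300 UMIs to 863 CPM in those of at least 6000, and from 399 to 970 CPM in doxorubicin-resistant barcodes. In treatment-naïve barcodes it went the other way, from 239 CPM (176 to 318, 47 UMIs) under 300 UMIs to 58.7 CPM at 6000 or more. The ESM1 levels of the 3 spheroid populations were therefore much closer together among the shallowest barcodes, which numbered 1354, 1129 and 788. Giving each barcode equal weight lowered the ESM1 ratio to 3.89 in paclitaxel-resistant and 5.43 in doxorubicin-resistant spheroids, and equal weights among cells of at least 1000 UMIs gave 9.26 and 12.4. From attached cells of 1000 to 3000 UMIs to those of at least 6000, VEGFA went from 12890 to 12359 CPM in treatment-naïve cells. It went from 5511 to 4146 CPM in paclitaxel-resistant and from 5605 to 4471 CPM in doxorubicin-resistant cells. Attached ESM1 went from 10.8 to 18.8, from 40.4 to 46.6 and from 187 to 240 CPM in the same order. ANGPT1 went from 8.96 CPM (6.24 to 12.5) to 19.9 CPM (16.3 to 24.1) in attached treatment-naïve cells. In attached resistant cells its intervals overlap between these depths. In spheroids its intervals under 300 UMIs and at 6000 or more overlap in each population, with only 9, 4 and 2 ANGPT1 UMIs under 300.

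Each cell was also assigned to the population of its cartridge whose profile, over genes other than VEGFA, ESM1 and ANGPT1, made its counts most likely. The share of cells that matched their own tag was 94.6%, 91.8% and 86.0% in attached and 71.2%, 70.3% and 76.3% in spheroid populations, and among spheroid cells of at least 1000 UMIs 78.8%, 87.0% and 85.4%. The ESM1 level of treatment-naïve spheroids turned on this match. Those that matched their own population held 37.2 CPM (33.4 to 41.3) and those that matched a resistant population 163 CPM (145 to 182).

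The treatment-naïve spheroid cells richest in ESM1 resembled resistant cells more often than the rest. Of the 21 with more than 5 ESM1 UMIs, 8 matched treatment-naïve, 9 paclitaxel-resistant and 4 doxorubicin-resistant profiles. ABCB1, the drug efflux pump P-glycoprotein, exceeded 5 UMIs in 13.96% of ESM1-positive treatment-naïve spheroid cells (43 of 308) and in 1.13% of ESM1-negative ones (46 of 4054), classes whose median depth was 3917.5 and 1364 UMIs. As a level ABCB1 was at 1134 CPM in the former and 173 CPM in the latter. By CPM ABCB1 was higher in ESM1-positive cells of the other 5 populations too. It was at 4038 against 2704 CPM in paclitaxel-resistant spheroids, classes with a median depth of 3879 and 538.5 UMIs. In attached treatment-naïve cells the values were close, 168 CPM in 179 cells against 145 CPM in 5126. These values carry no intervals, and depth was not held equal in them. At equal depth ABCB1 was among the highest ESM1 correlates in treatment-naïve spheroids only. In attached treatment-naïve cells all 7 with more than 5 ESM1 UMIs matched their own population. Restricted to cells that matched their own tag, ESM1 was 17.6-fold higher in paclitaxel-resistant and 22.5-fold higher in doxorubicin-resistant than in treatment-naïve spheroids. This restriction leaves out the treatment-naïve spheroid cells at 163 CPM, so larger ratios than the 10.8 and 13.6 of all cells follow from it. ABCB1 was among the genes used for the match. The part of mixed tags, doublets or free RNA in these values was not tested.

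Within a population, VEGFA and ESM1 levels were nearly unrelated cell by cell in doxorubicin-resistant cells of both cultures and weakly inverse in paclitaxel-resistant spheroids. At equal depth Spearman's rho between them was 0.009, −0.006 and 0.005 in attached cells, −0.021 in treatment-naïve and 0.025 in doxorubicin-resistant spheroids, and −0.137 in paclitaxel-resistant spheroids. At that depth only 1.15% of attached treatment-naïve, 3.43% of attached paclitaxel-resistant and 4.26% of treatment-naïve spheroid cells had ESM1. With so few positive cells rho stays near 0 in any case, so there it shows neither a relation nor its absence. In unthinned barcodes of resistant spheroids rho was 0.476 and 0.509, values that the shared depth of a cell enters. Thinning does not remove differences in composition between shallow and deep cells. In paclitaxel-resistant spheroids VEGFA went from 12515 CPM in cells of 1000 to 3000 UMIs to 8294 CPM in those of at least 6000. ESM1 went from 362 to 863 CPM between the same cells. The thinned rho there was −0.098 without cells above 3 times the median UMIs, and the part of depth in it was not tested. All such coefficients are descriptions across 2164 to 7032 cells that share a library.

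In paclitaxel-resistant spheroids, the population with the negative rho, cells without ESM1 had a mean of 11.5 VEGFA UMIs per 1000 (SD 6.85, n = 1534 cells) and ESM1-positive cells 9.57 (SD 5.96, n = 630 cells). When the cells were split into 4 groups of equal size by VEGFA, the share of ESM1-positive cells was 38.8% (34.7 to 43.1) in the group lowest in VEGFA, 27.9% and 29.2% in the middle groups and 20.5% (17.2 to 24.2) in the highest group. In doxorubicin-resistant spheroids the shares were 33.3%, 33.5%, 39.3% and 34.4% with no such order. The intervals of the lowest and highest groups do not overlap in paclitaxel-resistant spheroids. They cover counting over cells of 1 library, not the spread between cultures. The part of a cell's original depth in this order was not tested.

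**Figure D4:**
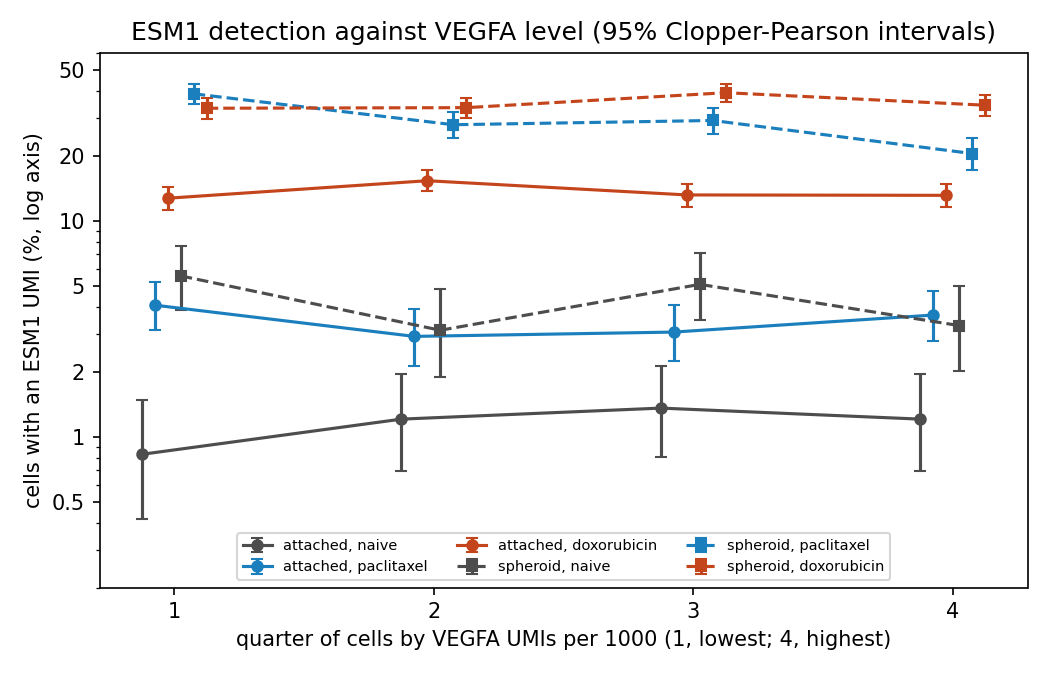
Share of cells with an ESM1 UMI (%, log axis) in each of 4 groups of equal size ordered by VEGFA UMIs per 1000, for the 6 populations thinned to 1000 UMIs, with 95% Clopper-Pearson intervals over cells. In paclitaxel-resistant spheroids the share goes from 38.8% in the lowest to 20.5% in the highest group, and in the other populations the intervals of the lowest and highest groups overlap.

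ESM1 and ANGPT1 were rarely seen in the same cell, about as often as their separate shares would give. The number of thinned cells with both was 0, 8 and 11 in attached populations, where independence would give 0.655, 5.41 and 12.1. In spheroids it was 0, 26 and 23, where independence would give 1.41, 32.3 and 21.1. The ANGPT1-positive and ANGPT1-negative cells had similar VEGFA means except in attached treatment-naïve cells, where 57 ANGPT1-positive cells had a mean of 16.3 VEGFA UMIs per 1000 (SD 10.7) and the others 12.9 (SD 8.01), and rho between VEGFA and ANGPT1 lay between −0.003 and 0.033 in the 6 populations. With so few ANGPT1-positive cells rho stays near 0 in any case, so these values neither show a relation nor show that there is none.

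The panel genes that varied most with VEGFA from cell to cell, at equal depth, differed between populations. In attached treatment-naïve cells rho was 0.28 for the epithelial integrin subunit ITGA6 and 0.24 for the EGFR ligand AREG, and it was −0.30 for COL3A1 and −0.26 for COL1A1, both fibrillar collagens. In attached resistant cells MYC was the highest, with 0.23 and 0.19, while the mitotic genes BIRC5 and PRC1 and the replication gene RRM2 were among the lowest, BIRC5 at −0.21 in paclitaxel-resistant cells. In treatment-naïve spheroids NEAT1, a long noncoding RNA of nuclear paraspeckles, had 0.28 and HIF1A, the oxygen-regulated transcription factor subunit, 0.25. In paclitaxel-resistant spheroids PDGFRA had 0.34, FN1 (fibronectin) 0.30 and PDGFRB 0.29, and in doxorubicin-resistant spheroids CDCP1 had 0.24.

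For ESM1 the per-cell coefficients were smaller. In paclitaxel-resistant spheroids the cell cycle genes UBE2C, MYBL2 and ANLN had rho of 0.19, 0.18 and 0.18 and FN1 −0.18, so FN1 stood at opposite ends for ESM1 and VEGFA in that population. In attached paclitaxel-resistant cells the cell cycle genes CCNB1 (−0.06) and CDC20 (−0.04) were instead the lowest, both close to 0. In doxorubicin-resistant spheroids the integrin subunit ITGB1 had 0.21 and PLAU, the urokinase plasminogen activator, 0.20. In treatment-naïve spheroids ABCB1 was highest with 0.23. For ANGPT1 the coefficient farthest from 0 was that of IL7R, the interleukin 7 receptor, in attached treatment-naïve cells (0.15).

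Across the 6 populations, the genes whose log2(CPM + 1) profile was most like that of VEGFA, among 276 candidates, were CLDN4 (Pearson r = 0.956), CDCP1 (0.953) and ARG2 (0.945). For ESM1 they were CDKN2A (0.945), RARA (0.893) and CCR2 (0.884), and for ANGPT1 RARA (0.874), CCR2 and PDGFRA (0.845). Between the 3 factors r was −0.03 for VEGFA and ESM1, 0.62 for ESM1 and ANGPT1 and 0.18 for VEGFA and ANGPT1. These coefficients describe 6 points that share 2 cartridges. Several of the matched genes were near the floor, CLDN4 at 2.24 to 8.45 CPM, CDKN2A at 0.093 to 11.1 CPM and CCR2 at 0.093 to 7.97 CPM. RARA varied only from 159 to 239 CPM.

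The other angiogenesis genes of the panel place the 3 factors in context. Of 23 listed ligands and secreted modulators 11 were counted, VEGFA, ESM1 and ANGPT1 among them. In attached paclitaxel-resistant cells 5 of the 11 were called higher (DKK1, ESM1, PDGFB, SLIT2, THBS1) and 3 lower (CXCL12, CXCL8, VEGFA), with a median log2 ratio of 1.00 against −0.02 over all measured genes, of which 20.2% were called higher and 25.2% lower. In attached doxorubicin-resistant cells 4 were called higher and the same 3 lower, with medians of 0.17 and 0.13, where 24.3% of all measured genes were called higher and 22.8% lower. PDGFB, a growth factor that recruits pericytes, was at 9.52, 445 and 134.9 CPM in attached cells, 46.8-fold and 14.2-fold higher with resistance. THBS1 (thrombospondin 1), an inhibitor of angiogenesis, was 8.51-fold and 5.85-fold higher, at 437, 3716 and 2555 CPM.

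CXCL8 (interleukin 8), a pro-angiogenic chemokine, followed VEGFA in attached cells, at 117868 CPM in treatment-naïve, 26486 CPM in paclitaxel-resistant and 38345 CPM in doxorubicin-resistant cells. Unlike VEGFA it was also called lower in doxorubicin-resistant spheroids, by 2.78-fold. CXCL12, the chemokine ligand of CXCR4, was 62.4-fold and 59.6-fold lower in attached and 35.4-fold and 43.1-fold lower in spheroid resistant cells, paclitaxel before doxorubicin in each pair. In paclitaxel-resistant spheroids ANGPT1, ESM1, PDGFB and SLIT2 were among the factors called higher and CXCL12 was called lower. In doxorubicin-resistant spheroids 2 of the 10 factors that could be measured were called higher (ESM1, PDGFB) and 2 lower (CXCL12, CXCL8), with a median log2 ratio of 0.48 against 0.20 over all measured genes. By comparison 9.92% of all measured genes were called higher and 20.2% lower with paclitaxel, and 16.5% higher and 17.3% lower with doxorubicin resistance.

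Between the cultures, the secreted factors divided. In both resistant populations ANGPT1, CXCL12, ESM1 and VEGFA were called higher in spheroids and DKK1, PDGFB, SLIT2 and THBS1 lower, where 14.5% of all measured genes were called higher and 24.3% lower with paclitaxel, and 17.9% higher and 15.7% lower with doxorubicin resistance. In treatment-naïve cells CXCL12 and ESM1 were called higher and PDGFA and SLIT2 lower, with 18.2% of genes called higher and 24.2% lower. The median log2 ratio of the 11 was −0.26, −0.15 and −0.57, beside −0.33, −0.41 and −0.34 over all measured genes.

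Of 20 listed receptors and endothelial genes 7 were counted, and FLT1, KDR and VWF were too sparse to measure in any comparison. The VEGFA receptors FLT1 and KDR had at most 15 and 3 UMIs in a population. Of the 4 measured, the PDGF receptor PDGFRA was called higher (3.41-fold) and the endothelin receptor EDNRA lower (2.14-fold) in attached paclitaxel-resistant cells, and EDNRA was lower, at 165 against 578 CPM, in attached doxorubicin-resistant cells. ENG (endoglin), a co-receptor of the TGF-beta family, was higher in spheroids in each kind of cell, by 2.54-fold, 2.84-fold and 2.17-fold. In treatment-naïve spheroids PDGFRA (4990 against 1311 CPM) and PDGFRB (2536 against 463 CPM) were also called higher and EDNRA lower (280 against 578 CPM). PDGFRA was called higher in doxorubicin-resistant spheroids too (3724 against 1390 CPM). Of all measured genes 18.2%, 14.5% and 17.9% were called higher in spheroids and 24.2%, 24.3% and 15.7% lower.

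Of 18 listed hypoxia and glycolysis genes only HIF1A, CA12 and GAPDH were counted. HIF1A stayed between 12477 and 16629 CPM, with a spheroid over attached ratio of at most 1.28-fold in either direction. CA12, a membrane carbonic anhydrase, was called lower in paclitaxel-resistant cells of both cultures (2.06-fold and 2.87-fold) and in doxorubicin-resistant spheroids (2.38-fold). None of the 3 was called between the cultures. EGLN1, the oxygen-sensing prolyl hydroxylase, and SLC2A3, a glucose transporter, were added once the panel's genes were known, and the SLC2A3 ratio of spheroid to attached doxorubicin-resistant cells, 1.93-fold higher, was the largest difference of either.

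**Figure D5:**
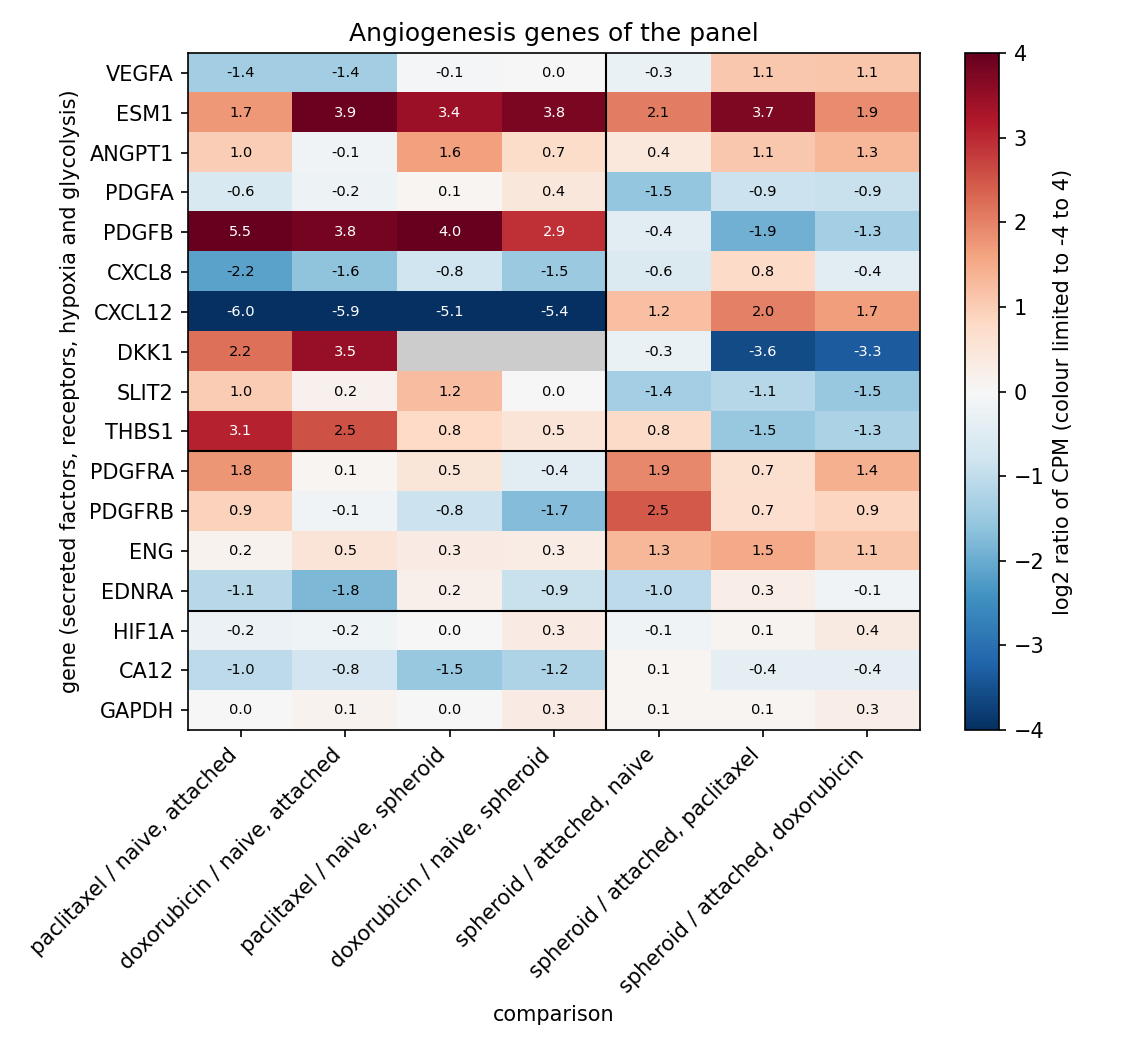
Log2 ratio of CPM for genes of the 3 lists (rows: secreted factors, receptors, hypoxia and glycolysis) in 7 comparisons (columns), coloured from blue (lower) to red (higher) and limited to 4 in either direction. Grey cells had under 50 UMIs in both populations. VEGFA and CXCL8 are lower in attached resistant cells, ESM1 and PDGFB are higher with resistance in both cultures, and CXCL12 is lower with resistance and higher in spheroids.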

How the data were processed

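Per the labels, 2 samples of SUM159 cells were run as BD Rhapsody targeted assays with a breast cancer panel. The deposited counts are UMIs per gene and cell, adjusted with RSEC by the authors on a cloud platform, with hg38 as build. The population of each file was read from its name. Filters and doublet treatment before deposit are not given in the sources used here, so all barcodes were kept and no doublet caller was run. UMIs were summed per population and scaled to CPM. CPM has exact Poisson, shares Clopper-Pearson and ratios conditional binomial 95% intervals. The intervals of ratios were tested on simulated counts, and those of the ratios of ratios are normal approximations on the log scale. No replicates exist, so no p-value is given and p-value based tests were not run. Alternatives were unscaled totals, median-of-ratios scaling over 213 genes, no UMI minimum, cells of at least 1000 UMIs, equal weights per cell, leaving out cells above 3 times the median, and cells that matched their own population. Equal weights among cells of at least 1000 UMIs, and own-population cells for co-expression, were added after seeing the data. Genes named are the 3 factors, every panel gene of 3 angiogenesis lists, for each factor the genes most like it over populations and the highest and lowest per-cell correlates, with some of these not reported here, and ABCB1, which was chosen after its values were seen. The factors and lists were chosen with earlier results of these data known. Python 3.11.15, numpy 2.4.6, scipy 1.17.1 and pandas 2.3.3 were used. Of 373 symbols, 363 matched RefSeq, from which the ESM1 promoter was taken.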

Additional observations from a re-analysis of the deposited data

Results flagged for a closer look

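For ANGPT1 with doxorubicin resistance the ratios of the 2 cultures lay on opposite sides of 1, and neither passed the 2-fold rule. The ratio to treatment-naïve cells was 0.907 (0.773 to 1.06) in attached cells and 1.68 (1.40 to 2.01) in spheroids, and the spheroid ratio divided by the attached ratio was 1.85 (1.46 to 2.35). The difference was not tested, since each group is 1 population, and the attached interval includes a ratio of 1. With each cell weighted equally the spheroid ratio was 0.710, and in unscaled totals the attached ratio was 1.25.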

How the results depend on the processing

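Of 27 ratios (3 factors, 9 comparisons), direction and side of the 2-fold threshold were kept by 27 and 27 in cells of at least 1000 UMIs and in cells that matched their own population, 24 and 26 with median-of-ratios scaling, 26 and 26 without cells above 3 times the median UMIs, 24 and 25 with equal weights among cells of at least 1000 UMIs, 23 and 21 with equal weights for all cells, and 21 and 18 in unscaled totals. Own-population cells were chosen by the profiles of these same populations, so ratios kept in them are not independent support. The ratios that moved by more than their counting interval follow, to treatment-naïve cells and with paclitaxel before doxorubicin. For VEGFA in attached cells they were 0.413 and 0.523 in unscaled totals, 0.361 and 0.354 with median-of-ratios scaling, 0.392 and 0.394 with either equal weighting, and 0.372 and 0.374 in own-population cells. For VEGFA in spheroids they were 0.716 and 0.915 unscaled, 0.981 and 0.869 with median-of-ratios scaling, 0.992 and 1.07 with equal weights, 1.01 for paclitaxel with equal weights from 1000 UMIs, 0.939 and 0.962 in own-population cells, 0.994 and 0.937 without cells of very high UMI count, and 0.971 for doxorubicin in cells of at least 1000 UMIs. For ESM1 in attached doxorubicin-resistant cells the unscaled ratio was 21.0. For ESM1 in spheroids the ratios were 8.09 for paclitaxel unscaled, 12.0 for doxorubicin with median-of-ratios scaling, 3.89 and 5.43 with equal weights, 9.26 and 12.4 with equal weights from 1000 UMIs, 17.6 and 22.5 in own-population cells, 7.62 and 11.4 without cells of very high UMI count, and 11.9 and 14.8 in cells of at least 1000 UMIs. For ANGPT1 in attached cells they were 2.34 for paclitaxel with either equal weighting and 1.25 for doxorubicin unscaled. For ANGPT1 in spheroids they were 2.33 for paclitaxel unscaled and 1.43 and 0.710 with equal weights. Spheroid over attached ratios turned below 1 in unscaled totals, for VEGFA to 0.764 and 0.770 and for ANGPT1 to 0.762 and 0.897 in paclitaxel-resistant and doxorubicin-resistant cells, as the construction of that setting brings with it (the spheroid libraries hold fewer UMIs). The number of populations called between the cultures was 1 for VEGFA, 2 for ESM1 and 0 for ANGPT1 unscaled, and 1 for ANGPT1 with equal weights. Where no other cause is given, the cause was not tested. No paired analysis was possible because the labels give no replicate numbers. Depth limits ANGPT1 most, with 200 to 610 UMIs in a population.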
